A study of Mus musculus with 8 samples.

Results

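Collagen chain genes were examined in skeletal cells sorted from healing mouse bone. Members were all genes whose symbol is Col, a number, a and a number, read from probe sets that the platform annotation assigns to exactly 1 gene. This gave 42 genes among 18193, measured by 82 of 34945 probe sets. Affymetrix mouse arrays had been hybridized with RNA of skeletal stem cells, called SSCs (4 arrays), and of the bone, cartilage and stroma progenitors downstream of them, called BCSPs (4 arrays), to compare the expression of the purified populations. All cells came from calluses of bicortical femoral fractures, stabilised with an intramedullary pin, in male C57/Bl6 mice of 10 to 12 weeks, which carried no transgene or treatment according to the labels. SSCs were CD51-positive and CD200-positive without CD105, BCSPs were CD51-positive with CD105, and cells with CD45, Ter119, Tie2, Thy1 or 6C3 were gated out of both. Each of 4 experiments gave 1 array per population from 10000 sorted cells, without culture, and a figure legend of the study names a different mouse for each callus. The labels place the harvest on day 7 after fracture, while the study's methods name a later day. No array of uninjured bone or of unsorted callus was analysed here.

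Collagens are the main structural proteins of the extracellular matrix. Their chains wind around each other into a rod-like helix, either as copies of the same chain or as mixtures of chains from related genes, and the type of collagen decides which structure is built. Fibrillar collagens form the tensile fibrils of bone, tendon and cartilage, FACIT collagens sit on the fibril surface, type VI forms beaded microfibrils around cells, type X forms a network in hypertrophic cartilage, and type IV forms the sheet of basement membranes. A fracture callus passes through a cartilage stage rich in types II, IX, X and XI before bone rich in type I replaces it.

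The deposited value is an activity score. It places the signal of a probe set within the range of that same probe set over a large collection of public arrays, from about -100 (inactive) to +100 (active), with a threshold at 0. A gene was read from its probe set with the highest mean and is called active where the score exceeds 0. The score levels off at both ends and is no fold change, so differences are given in points, and scores do not rank the amount of mRNA of 1 gene against another. Arrays of sorted cells are bulk samples, in which fewer cells of a type and less RNA per cell cannot be told apart. On the 8 arrays 29.0% to 31.0% of probe sets that are not controls scored above 0, and the 95th percentile of 58 probe sets of genes from unrelated tissues lay between -18.4 and -7.43 points. Chondrocyte markers were active on all 8 arrays for 9 of 9 genes and osteoblast markers for the 5 measured of 8 listed. Fibroblast and tendon markers were so for 7 of 7 measured genes, and 25.0% of all genes were. Macrophage markers were active on no array for 8 of 8, against 43.5% of all genes. Eng, the gene of CD105, scored -64.4 to -29.4 points in SSCs and -1.02 to 50.1 points in BCSPs, with 2 BCSP arrays above 0. Cd200, the gene of the CD200 marker of SSCs, did not separate the populations, at 96.04 to 99.6 points in SSCs and 94.25 to 99.55 points in BCSPs.

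Collagen genes were more often active than genes at large, and the share of active genes was not the same in each class. Of the 42 genes, 22 (52.4%) were active on all 8 arrays, against 25.0% of all genes, 12 were active on none (28.6%, against 43.5%) and 8 on some arrays. At least 90 points on every array were reached by 13 collagen genes (31.0%), against 2.71% of all genes. Active on all 8 arrays were 9 of 11 fibrillar, 6 of 9 FACIT, 3 of 5 beaded and 3 of 3 network collagens, 1 of 4 transmembrane collagens and none of the 6 basement membrane and 2 multiplexin genes. The median of the gene means was 94.6 points in SSCs and 95.2 points in BCSPs for the fibrillar class, 93.8 and 93.5 points for FACITs, and 94.6 and 94.4 points for the beaded class. For the network class it was 79.3 points in SSCs and 77.3 points in BCSPs. Below 0 lay the medians of the basement membrane class, at -66.1 points in SSCs and -33.8 points in BCSPs, of the transmembrane class, at -12.3 and -15.6 points, and of the multiplexins, at -31.8 and -23.5 points.

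**Figure D1:**
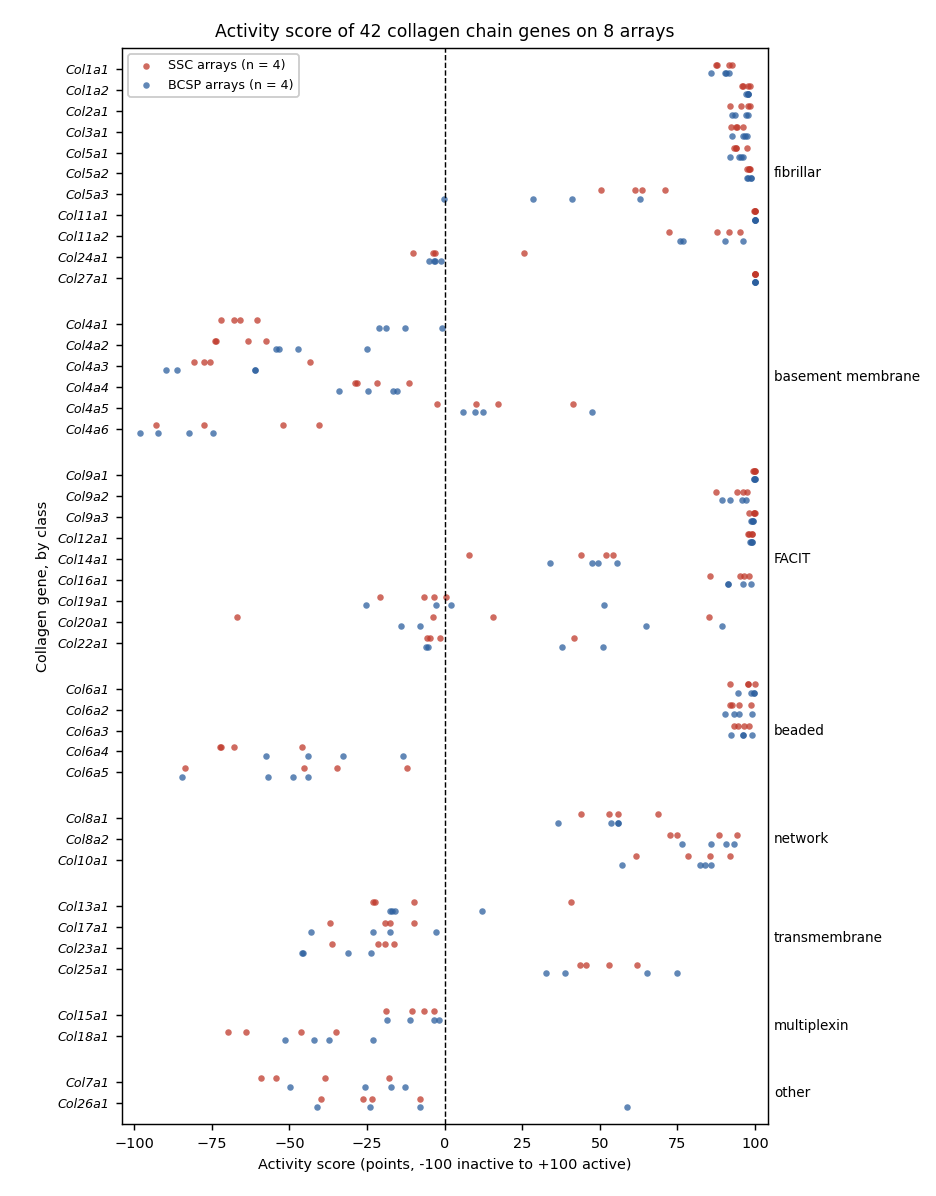
Activity score in points (x axis) of the 42 collagen genes (y axis, by class) on 4 SSC and 4 BCSP arrays, each point an array and the dashed line the threshold of 0. Most fibrillar, FACIT, beaded and network genes lie right of the threshold on every array, and 5 of 6 basement membrane genes lie left of it.

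Among the fibrillar collagens, the chains of cartilage fibrils were above the threshold on all arrays. Col2a1, the main collagen of cartilage, scored 97.9, 95.5, 92.01 and 98.3 points in the SSCs of experiments 1 to 4 and 97.7, 97.1, 92.4 and 93.6 points in the BCSPs. Col11a1, whose chain joins type II fibrils and limits their width, lay between 99.67 and 99.96 points on all arrays, and its partner Col11a2 between 72.1 and 95.95 points. Col27a1, a fibrillar collagen of cartilage, scored 99.97 points or more everywhere. The main genes of bone and general connective tissue were above the threshold on all arrays too, with scores in a similar range. Col1a1, which encodes the chain that makes up most of type I collagen, averaged 89.8 ± 2.72 points in SSCs and 89.65 ± 2.59 points in BCSPs (SD, n = 4 each), and its second probe set 38.1 ± 15.1 and 29.96 ± 14.1 points. Its partner Col1a2 averaged 97.02 ± 1.26 points in SSCs and 97.6 ± 0.264 points in BCSPs. Col3a1, the type III collagen of loose connective tissue and early repair, averaged 94.1 ± 1.61 points in SSCs and 95.7 ± 2.12 points in BCSPs. The type V chains, which start and regulate type I fibrils, were split. Col5a1 and Col5a2 scored 91.9 points or more on every array, whereas Col5a3 ranged from -0.12 to 71.1 points. Col24a1, a minor fibrillar collagen, was above 0 only on the SSC array of experiment 1, at 25.5 points, and at -1.25 points or below on the others.

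Type IX collagen, the FACIT that decorates type II fibrils, was active in all its chains. Col9a1 scored at least 99.2 points, Col9a3 at least 97.9 points and Col9a2 at least 87.3 points on every array. Col12a1, a FACIT of tendon, periosteum and dense tissue, scored 97.7 to 99.15 points, and Col16a1, which is found in cartilage and skin, scored 85.6 to 98.6 points. Col14a1, related to Col12a1 and typical of fibroblasts, was lower in its own range. It scored 51.9, 54.3, 44.1 and 7.81 points in SSCs and 47.3, 55.4, 49.4 and 33.8 points in BCSPs, so experiment 4 was lowest in both populations. The remaining FACITs were active on some arrays: Col20a1 on 4, Col19a1 on 3 and Col22a1, a collagen of tissue junctions, on 3. Col19a1 and Col22a1 reached 51.2 points at most.

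Type VI collagen, which forms the beaded microfibrils of the pericellular matrix, divided into its classical and its later described chains. Col6a1, Col6a2 and Col6a3, which assemble with each other, scored at least 92.04, 90.5 and 92.2 points on every array. Col6a4 and Col6a5, which can take the place of the third chain, were below 0 on every array, at -72.4 to -13.4 and -84.6 to -12.1 points. In the network class, Col10a1, the marker collagen of hypertrophic chondrocytes, scored 57.1 to 91.8 points. Col8a2 scored 72.5 to 94.2 points and Col8a1, which shares the short-chain structure of Col10a1, 36.5 to 68.8 points.

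The basement membrane, transmembrane, multiplexin and remaining collagens were mostly below the threshold, with exceptions. Col4a3, Col4a4 and Col4a6, chains of specialised basement membranes, were below 0 on every array, between -97.98 and -11.4 points. Col4a5, the chain that assembles with these, was above 0 on 7 arrays, at 41.3 points in SSCs and 47.5 points in BCSPs of experiment 4 and -2.38 to 17.1 points elsewhere. Among transmembrane collagens, Col25a1 was active throughout, at 45.5, 43.6, 52.8 and 62.1 points in SSCs and 32.7, 38.8, 65.3 and 74.7 points in BCSPs. Col17a1, the hemidesmosome collagen of skin, and Col23a1 were below 0 on every array, and Col13a1 was above 0 on both arrays of experiment 1 alone, at 40.6 points in SSCs and 12.1 points in BCSPs. The multiplexins Col15a1 and Col18a1, the source of endostatin, were below 0 on every array, at -18.95 to -1.66 and -69.7 to -22.9 points. Col7a1, which forms the anchoring fibrils of skin, lay between -59.3 and -12.8 points. Col26a1 was above 0 on the BCSP array of experiment 1 alone, at 58.8 points.

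How firmly a gene can be called active depended on its probe sets. Of the 42 genes, 27 had several. For 16 of these all probe sets gave the same answer, 9 with all above 0 on all arrays and 7 with all below 0, and for 11 they differed. Among the 22 active genes the call rested on some of the probe sets for 5, namely Col5a1, Col12a1, Col14a1, Col8a1 and Col25a1. The other genes whose probe sets differed were Col5a3, Col4a5, Col19a1, Col20a1, Col22a1 and Col26a1. Of these, all but Col5a3 had a probe set below 0 on all arrays. The means over 8 arrays of the highest and lowest probe set were 52.9 and -44.9 points for Col8a1, 94.6 and 0.200 points for Col5a1, and 43.02 and -49.7 points for Col14a1. In contrast, both probe sets of Col11a1, Col27a1 and Col5a2 lay within 1.95 points of each other in the mean. Read from the lowest probe set of each gene, 17 collagen genes (40.5%) were active on all 8 arrays, against 10.3% of all genes, and with the mean of the probe sets 19 (45.2%), against 16.2%. Counted singly, 35 of the 82 collagen probe sets (42.7%) and 18.8% of all probe sets were active on all 8 arrays. Collagen genes had 1.95 probe sets each and all genes 1.92, and which transcript each probe set detects was not tested.

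**Figure D2:**
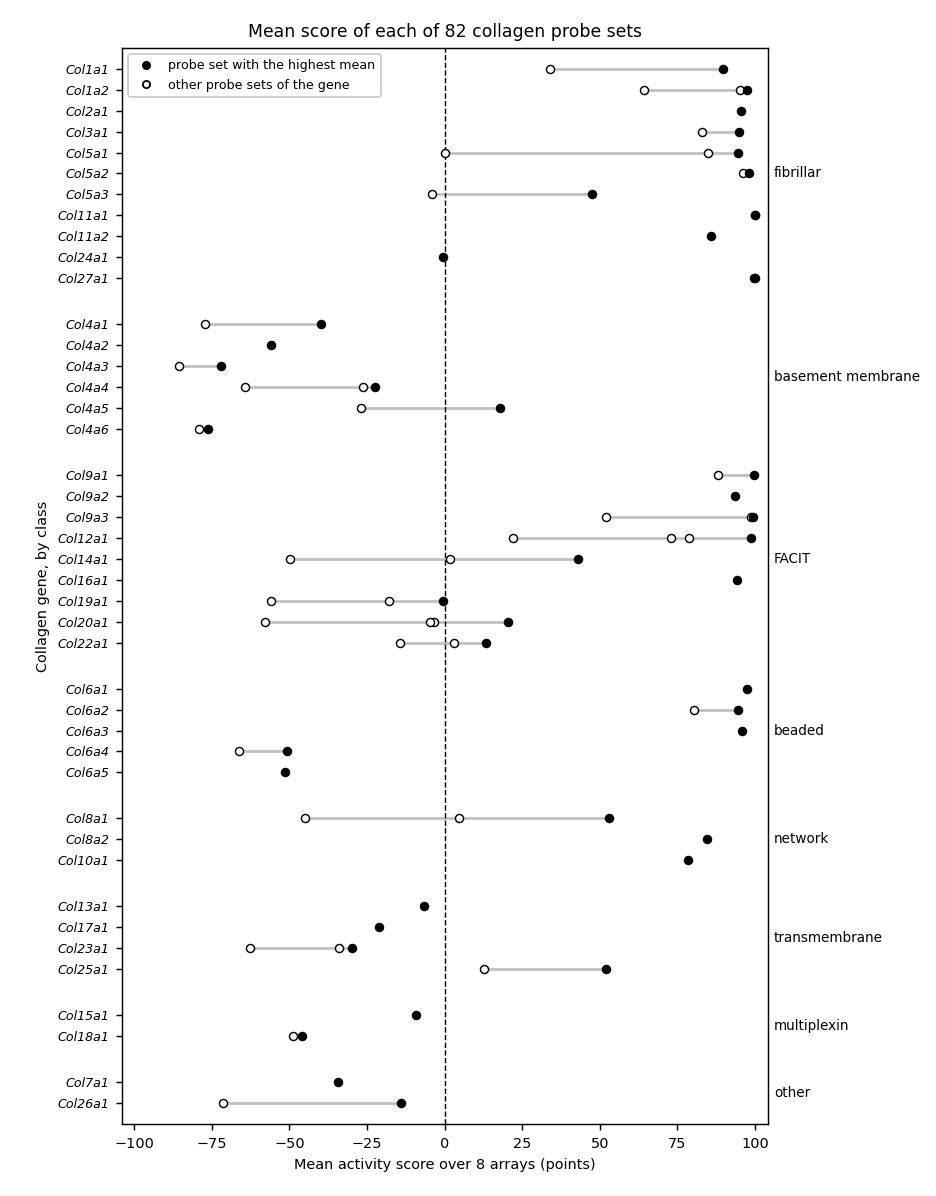
Mean activity score over 8 arrays in points (x axis) of each of 82 collagen probe sets, by gene and class (y axis). Filled points are the probe set read for the gene, open points the others, and the bar spans their range, which reaches 97.8 points for Col8a1 and 0.0225 points for Col11a1.

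SSCs and BCSPs were then compared, which asks whether the stem cell and its progeny differ in their matrix program. No collagen gene passed the test (limma, 0 of 42), as was the case for all genes (0 of 18193, 0.0%). Eng, the gene of the CD105 marker that separated the populations in the sort, did not pass either (difference -58.4 points, unadjusted p = 0.00349 from limma). A gene that did not pass is therefore not shown to be equal in both populations. At an unadjusted p under 0.05 there were 3 collagen genes, all lower in SSCs, against 2.56% of all genes in either direction and 1.45% in that direction. Higher in SSCs at that level were none of the 42 and 1.1% of all genes. By the methods' t-test 440 genes (2.42%), including 3 collagen genes, had such a p, and 0 had an adjusted p under 0.05. Blocking on experiment, 2 collagen genes had an unadjusted p under 0.05, against 5.22% of all genes, and again 0 passed. The median difference (SSC minus BCSP) was -0.108 points over the collagen genes and -0.998 points over all genes. For the main collagens the interval of the difference was narrow. It ran from -3.83 to 5.27 points for Col2a1, from -4.74 to 5.05 points for Col1a1, from -5.37 to 2.18 points for Col3a1 and from -2.36 to 2.35 points for Col27a1 (95% confidence intervals from limma). These scores lay near the top of the scale, where it levels off, so an equal score does not show an equal amount of mRNA. For genes in the middle of the scale the interval was wider, from -16.2 to 20.3 points for Col10a1 and from -25.4 to 21.7 points for Col25a1. Col5a3 had the largest positive difference, at 61.6 ± 8.56 points in SSCs and 33.1 ± 26.3 points in BCSPs (SD, n = 4 each). It was higher in SSCs in 3 of 4 experiments, the interval ran from -0.385 to 57.5 points, and the adjusted p was 1 (limma). Without the BCSP array of experiment 2 the difference was 17.5 points, and the second Col5a3 probe set had a difference of -3.90 points, lower in SSCs in 3 of 4 experiments.

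**Figure D3:**
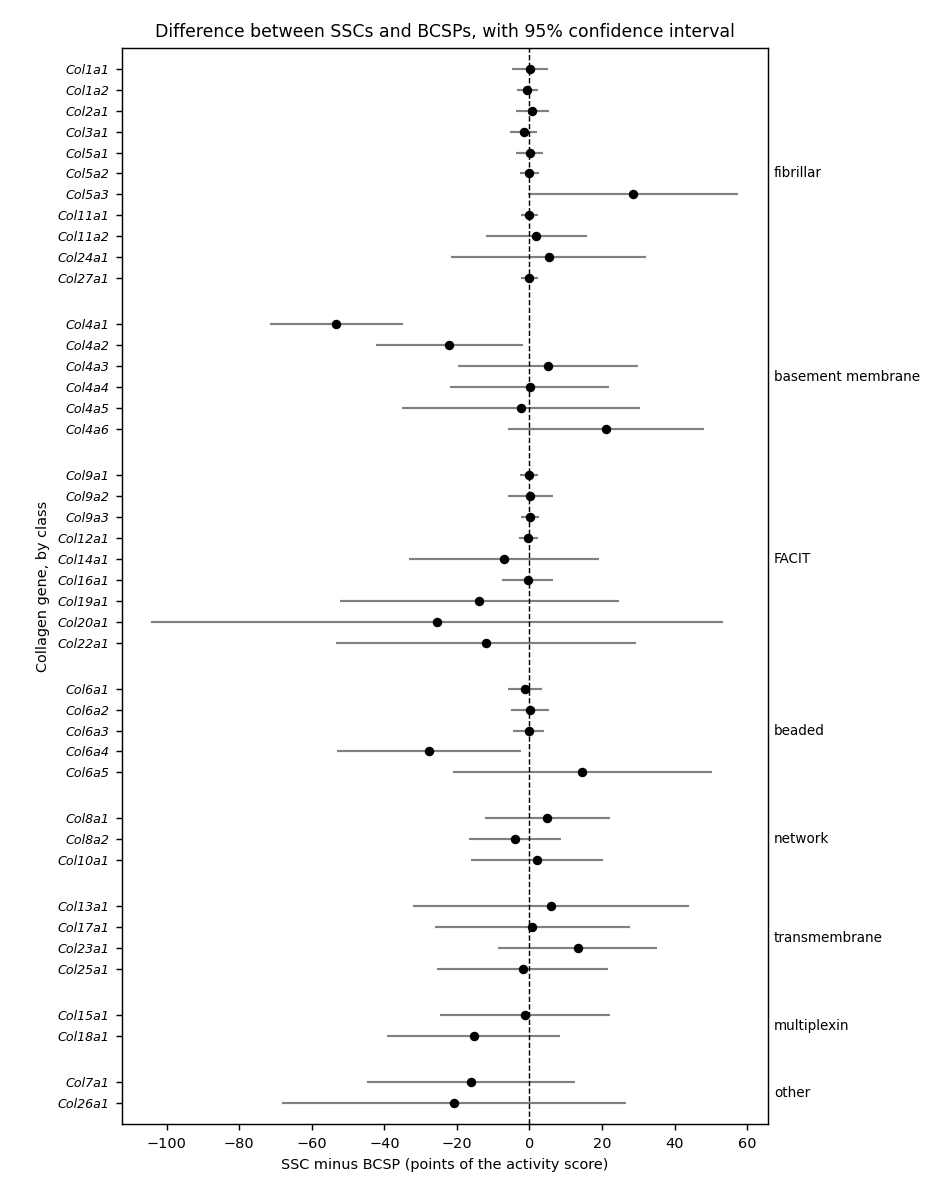
Difference between SSCs and BCSPs (SSC minus BCSP) in points of the activity score (x axis) for the 42 collagen genes (y axis, by class), with bars for the 95% confidence interval from limma. The intervals of Col4a1, Col4a2 and Col6a4 lie below 0, and none of these passed the test over all genes.

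The collagens that stood lower in SSCs without overlap were Col4a1 and Col4a2, whose chains form the type IV network of most basement membranes. Col4a1 scored -65.8, -67.8, -72.04 and -60.5 points in the SSCs of experiments 1 to 4 and -21.1, -0.80, -12.7 and -18.8 points in the BCSPs. The populations did not overlap, and all values were below the threshold. The difference was -53.2 points (standard error 8.12, 95% confidence interval -71.6 to -34.8, unadjusted p = 1.16e-04 and adjusted p = 1 from limma). Over all 70 ways of splitting the 8 arrays, the exact permutation p (two-sided) was 0.0286, the smallest possible, and exchanging arrays within experiments gave p = 0.125, the smallest that 16 exchanges allow. Any gene without overlap gives these same exact p-values, so they restate the criterion by which Col4a1 was named and add no support. The second Col4a1 probe set was lower in SSCs in 4 of 4 experiments as well, at -93.2, -90.2, -88.6 and -86.1 points in SSCs and -70.5, -48.4, -72.1 and -67.3 points in BCSPs, again without overlap.

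Col4a2, whose chain assembles with that of Col4a1, scored -57.4, -73.9, -73.6 and -63.3 points in SSCs and -53.3, -24.95, -47.4 and -54.4 points in BCSPs. The SSC and BCSP arrays did not overlap, but the highest SSC array (-57.4 points) and the lowest BCSP array (-54.4 points) were close. The difference was -22.1 points (standard error 8.89, 95% confidence interval -42.2 to -1.91, unadjusted p = 0.0353 and adjusted p = 1 from limma), with an exact permutation p = 0.0286 over 70 splits. With experiments as a block the unadjusted p was 0.0659 (adjusted p = 0.928, limma), and exchange within experiments gave an exact p = 0.125. As for Col4a1, both exact p-values follow from the lack of overlap. The difference was -15.4 points without the BCSP array of experiment 2. Genes without overlap and lower in SSCs made up 0.797% of all genes, against 2 of the 42 collagen genes, Col4a1 and Col4a2, and those higher in SSCs made up 0.544%, with no collagen gene. Over probe sets it was 3 of 82 collagen probe sets and 0.767% of all in the lower direction, and none and 0.581% in the higher. Col4a1 stayed below the 95th percentile of the probe sets from unrelated tissues on 7 of the 8 arrays, with the BCSP array of experiment 2 above it, and Col4a2 did so on all 8. Scores of those unrelated genes were themselves lower in SSCs, as given with the endothelial markers.

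Col4a1 and Col4a2 lie head to head in the genome, and their promoters are shown because these were the collagen genes without overlap between the populations. The windows are from RefSeq (GRCm38.p6) and hold 250 bases before and 50 bases from the annotated start. Capitals mark the motifs searched, on either strand: the CCAAT box (CCAAT or ATTGG), the GC box (GGGCGG or CCGCCC) and the TATA motif (TATAAA or TTTATA). The Col4a1 window is chr8:11312777-11313076 on the minus strand and that of Col4a2 is chr8:11312555-11312854 on the plus strand.
Col4a1: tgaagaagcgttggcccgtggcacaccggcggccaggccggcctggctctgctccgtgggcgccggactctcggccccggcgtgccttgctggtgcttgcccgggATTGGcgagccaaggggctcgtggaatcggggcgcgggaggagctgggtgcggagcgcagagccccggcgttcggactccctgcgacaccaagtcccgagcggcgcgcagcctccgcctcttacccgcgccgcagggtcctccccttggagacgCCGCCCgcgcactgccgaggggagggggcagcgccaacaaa
Col4a2: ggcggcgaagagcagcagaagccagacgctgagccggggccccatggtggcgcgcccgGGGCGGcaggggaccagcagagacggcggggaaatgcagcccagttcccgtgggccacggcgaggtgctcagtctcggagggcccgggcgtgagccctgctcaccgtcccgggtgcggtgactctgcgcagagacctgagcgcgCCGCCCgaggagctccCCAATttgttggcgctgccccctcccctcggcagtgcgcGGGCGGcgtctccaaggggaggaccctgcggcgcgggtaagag
The windows overlap by 78 bases, and the annotated start sites of the 2 genes lie 21 bases apart on opposite strands. Each window holds a CCAAT box and at least 1 GC box, and no TATA motif. The only GC box of the Col4a1 window lies in the overlap, after both annotated starts, and is also counted in the Col4a2 window. Further GC boxes of the Col4a2 window begin 192 and 48 bases before its start. The Col4a1 window has its CCAAT box, read as ATTGG, beginning 145 bases before the start, and the Col4a2 window has a separate one beginning 32 bases before the start. Of 32851 promoter windows in the RefSeq table, 37.4% held the CCAAT box, 35.7% the GC box and 13.6% the TATA motif. Among 36 windows of 33 collagen genes, 13, 22 and 5 held them.

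Col18a1 and Col6a4 were also lower in SSCs in all 4 experiments, without passing the test over all genes. Col18a1, found in the basement membranes of vessels, was lower in SSCs in 4 of 4 experiments by both of its probe sets. It scored -35.02, -46.1, -69.7 and -63.8 points in SSCs and -22.9, -41.9, -37.1 and -51.5 points in BCSPs, with overlap (difference -15.3 points, standard error 10.5, adjusted p = 1 from limma). Col6a4 scored -67.9, -72.4, -45.9 and -71.98 points in SSCs and -32.6, -44.1, -13.4 and -57.5 points in BCSPs. Its difference was -27.7 points (standard error 11.2, unadjusted p = 0.0361 and adjusted p = 1 from limma), but the second Col6a4 probe set was lower in SSCs in 2 of 4 experiments, by -1.65 points in the mean. Lower in SSCs in all 4 experiments were 4 collagen genes (9.52%), namely Col4a1, Col4a2, Col6a4 and Col18a1, against 8.03% of all genes. Higher in all 4 was 1, Col23a1 (2.38%, against 4.38%).

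Most endothelial markers also had lower means in SSCs. Endothelial cells rest on a type IV basement membrane and carry Tie2, and the sort gated out cells with Tie2. Whether some endothelial cells remained was not tested. Of 14 endothelial marker genes, 12 were lower in SSCs in the mean, against 55.8% of all genes, and 5 at an unadjusted p under 0.05, against 1.45%, with 0 past the test over all genes (limma). These 5 were Sox17 (-53.9 points), Robo4 (-39.5), Cldn5 (-33.9), Emcn (-32.6) and Sox18 (-23.7). Sox17, a transcription factor of arterial endothelium, scored -78.6, -78.99, -95.8 and -94.1 points in SSCs and -39.9, -21.7, -15.6 and -54.6 points in BCSPs, without overlap and with a difference about the size of that of Col4a1. The mean score of the list was -68.1 to -62.4 points on the SSC arrays and -61.9 to -33.3 points on the BCSP arrays. On all 8 arrays 13 of the 14 were below 0, against 43.5% of all genes active on no array. Pecam1 was among the 13, at -79.4 ± 9.94 points in SSCs and -82.7 ± 6.05 points in BCSPs (SD, n = 4 each). Cdh5, the cadherin of endothelial junctions, had the higher mean in SSCs, at -25.3 ± 4.10 points in SSCs and -53.96 ± 29.5 points in BCSPs. The marker above 0 on all arrays was Erg, a transcription factor that chondrocytes also express, at 57.5 points in SSCs and 58.9 points in BCSPs. Pericyte and smooth muscle markers had a mean of -18.5 to -6.30 points on the SSC arrays and -17.8 to -6.80 points on the BCSP arrays, with 7 of 9 below 0 on all arrays. Genes from unrelated tissues had lower scores in SSCs as well. Of 37 such genes 29 were lower in the mean, with a median difference of -5.02 points, and at an unadjusted p under 0.05 there were 3 lower and 1 higher. Their mean score was -53.3 to -40.1 points on the SSC arrays and -47.03 to -33.2 points on the BCSP arrays. The part of these cells, and of this shift in genes from other tissues, in the Col4a1 and Col4a2 values was not tested.

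**Figure D4:**
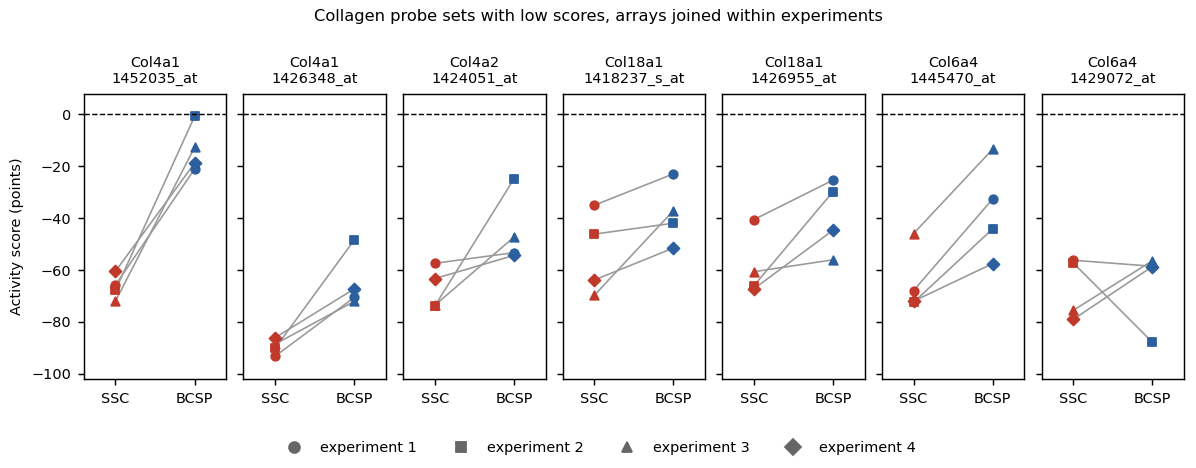
Activity score in points (y axis) of the 7 probe sets of Col4a1, Col4a2, Col18a1 and Col6a4 in SSCs and BCSPs, with lines joining the arrays of an experiment and the dashed line at the threshold of 0. SSCs lie lower in 4 of 4 experiments in each panel except the second Col6a4 probe set, where they lie lower in 2.

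Collagen scores were also compared between the 4 experiments. With population as a covariate, the experiments differed for 250 of all genes (1.37%, limma's moderated F, adjusted p under 0.05) and for 1 collagen gene, Col10a1. At an unadjusted p under 0.05 there were 10 collagen genes (23.8%), against 26.7% of all genes, a share near that of all genes. Col10a1 scored 85.4, 78.5, 61.6 and 91.8 points in the SSCs of experiments 1 to 4 and 84.02, 82.2, 57.1 and 85.8 points in the BCSPs. Both arrays of experiment 3 were the lowest of their population. The means of both arrays were 84.7, 80.4, 59.4 and 88.8 points in experiments 1 to 4, a range of 29.4 points (adjusted p = 0.0466 from limma). This call was lost without any single array (adjusted p = 0.0804 to 0.241 from limma) and without experiment 3 (adjusted p = 0.427), and over 18 alternatives the adjusted p lay between 0.0244 and 0.427. Without any single array, 0 to 6 of all genes passed.

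The Col10a1 promoter is shown as that of the only collagen gene past this test. Its window, chr10:34389731-34390030 on the plus strand (RefSeq, GRCm38.p6), has a TATA motif (capitals) that begins 32 bases before the start, and neither a CCAAT nor a GC box.
Col10a1: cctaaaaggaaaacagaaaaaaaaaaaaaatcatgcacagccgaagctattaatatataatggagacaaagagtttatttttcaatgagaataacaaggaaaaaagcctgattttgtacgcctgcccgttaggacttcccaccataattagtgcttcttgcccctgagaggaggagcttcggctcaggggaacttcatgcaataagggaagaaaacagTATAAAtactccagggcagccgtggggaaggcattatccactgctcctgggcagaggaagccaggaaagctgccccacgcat

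Experiment 3 was also the lowest for some, not all, of the other cartilage collagens, none of which passed the test. Col11a2 averaged 95.5, 90.96, 74.4 and 81.8 points in experiments 1 to 4 (adjusted p = 0.0963 from limma). Col9a2 averaged 97.3, 95.1, 88.3 and 94.02 points (adjusted p = 0.129) and Col2a1 97.8, 96.3, 92.2 and 95.96 points (adjusted p = 0.278). Experiment 3 had the lowest mean for 11 of the 22 active collagen genes, against 31.1% of all active genes, a count made after the values were seen. Col16a1, Col6a1 and Col6a3, which are not confined to cartilage, were among the 11. By the probe sets read here, Col9a1 and Col9a3 were lowest in experiment 2, and Col9a3 was highest in experiment 3, at 99.67 points. These means spanned only 0.335 points for Col9a1 and 1.375 points for Col9a3, near the top of the scale. Their second probe sets ranked the experiments otherwise. That of Col9a1 scored 94.8, 94.5, 80.1 and 91.97 points in SSCs and 95.5, 95.3, 77.8 and 75.7 points in BCSPs of experiments 1 to 4. That of Col9a3 was lowest in experiment 3 in SSCs, at 97.25 points. Col8a2, which scored 93.8, 89.5, 80.4 and 74.5 points in experiments 1 to 4, was lowest in experiment 4. Col3a1 was highest in experiment 3, at 96.7 points, against 93.4 to 94.98 points in the others. The second Col3a1 probe set did not show this. It scored 79.4 points in SSCs and 85.1 points in BCSPs of experiment 3, within the 79.3 to 87.5 points on the other arrays. Col20a1 had the widest range. The means were -40.4, 3.90, 87.1 and 30.6 points in experiments 1 to 4 (adjusted p = 0.108), and of its 4 probe sets only the one with the highest mean showed scores above 34.6 points.

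The arrays of experiment 3 also differed in the actin control probe sets. The score of the 3' actin probe set exceeded that of the 5' probe set by 59.6 points in SSCs and 64.9 points in BCSPs of experiment 3, against 23.1 to 36.6 points in SSCs and 25.7 to 44.2 points in BCSPs of the others. For Gapdh, the difference was 54.7 points in SSCs and 49.1 points in BCSPs of experiment 3, within the 21.3 to 71.9 points on the others. The median of the hybridization control probe sets was highest in experiment 1. It was 66.8 points in SSCs and 72 points in BCSPs there, against -27.6 to 42.01 points on the other arrays. The part of these differences in the collagen values was not tested. Differences between mice, harvests and array processing cannot be told apart here, because the labels number experiments only.

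**Figure D5:**
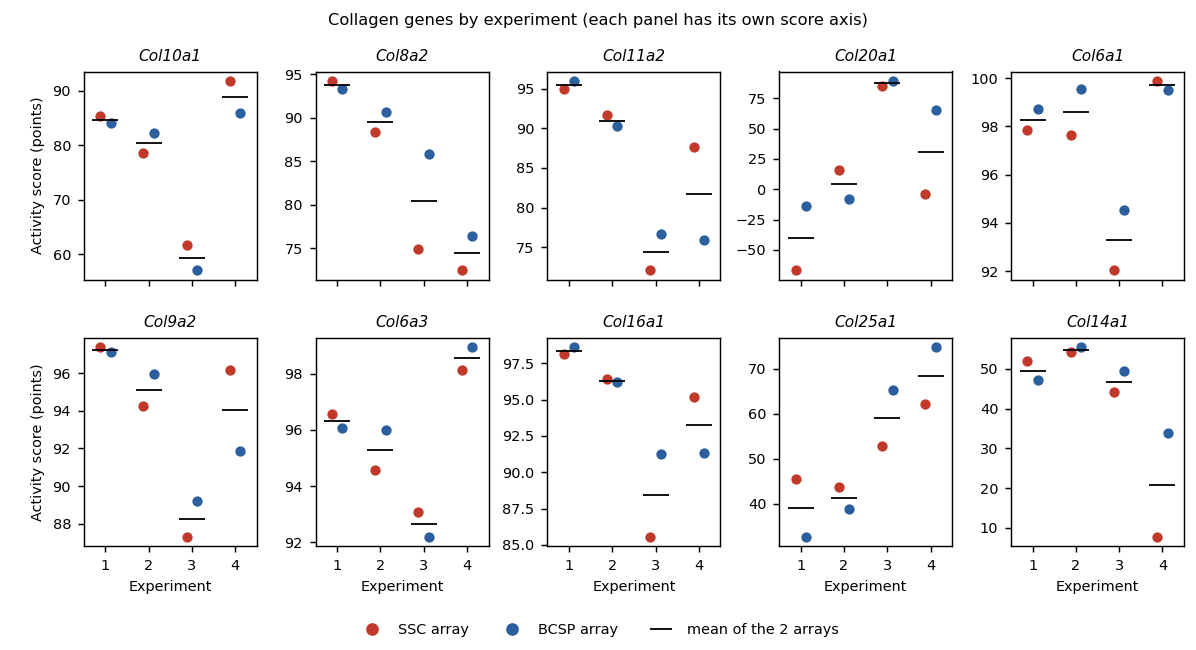
Activity score in points (y axis, a separate scale in each panel) by experiment (x axis) for the 10 collagen genes with an unadjusted p under 0.05 between experiments, with a point for the SSC array, a point for the BCSP array and a bar for their mean. Col10a1, the only one past the adjusted threshold, is lowest in experiment 3 in both populations.

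Genes that modify, fold, secrete and cross-link collagen chains were active beside them. Of 26 measured genes of this list, 24 were active on all 8 arrays, against 25.0% of all genes, and 2 on some, Creb3l1 and Loxl1. The array medians of the list were 97.3 to 99.53 points in SSCs and 97.9 to 99.5 points in BCSPs. None passed the comparison of SSCs with BCSPs (0 of 26 by limma), and none did at an unadjusted p under 0.05. Between experiments 2 of the 26 passed, against 1.37% of all genes: Plod1, a lysyl hydroxylase, and Mia3, which helps to load collagen into transport vesicles (adjusted p = 0.0460 each from limma). Both calls were lost without any single array, at adjusted p = 0.0770 to 0.244 for Plod1 and 0.0882 to 0.235 for Mia3 (limma). Plod1 scored 97.5, 98.7, 74.99 and 98.6 points in the SSCs of experiments 1 to 4 and 97.7, 98.5, 74.5 and 89.8 points in the BCSPs, again lowest in experiment 3. Mia3 was low in experiments 2 and 3, at 54.4 and 57.3 points in SSCs and 61.1 points in both BCSP arrays, against 77.3 to 81.5 points in SSCs and 80 to 85.4 points in BCSPs of the others.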

How the data were processed

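Per the labels and the study's methods, RNA of sorted cells was amplified in repeated rounds and hybridized to Affymetrix mouse arrays. The authors used Gene Expression Commons, which sets each array against a large body of public ones and finds the threshold of every probe set with StepMiner. They deposited the resulting activity score for 45101 probe sets (-100.03 to 100). The method that combined probes into a probe set signal is, for these arrays, not given in the sources used here.

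Names came from the platform annotation (34945 probe sets with 1 gene symbol, 932 with several, 9160 unnamed here), 64 control probe sets were left out, and each gene was read from its probe set with the highest mean. All 82 collagen probe sets matched RefSeq by gene ID, with 0 symbols changed. Col6a6, Col21a1 and Col28a1 were not analysed here, since no probe set is assigned to them alone. Scores were tested as deposited over all genes in R 4.3.3 by limma 3.58.1, using lmFit and trended eBayes with Benjamini-Hochberg adjustment (threshold 0.05), without a block as in the study's unpaired tests. Experiments were compared by limma's moderated F with population as covariate. Exact permutation tests were two-sided. The fits were run on simulated scores with independent normal noise. The simulation had neither the limits of the scale nor noise shared within an experiment, so it does not show how the fits behave there. The number of arrays limits the precision. The limma p-values set a difference against the spread between these arrays, moderated across genes. In the unpaired fits that spread includes differences between experiments.

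Experiments 1 to 4, named in the labels, each hold an SSC and a BCSP array. For 1 BCSP array the title and description disagree on its number, and the description was followed (BCSP 2), which fits its experiment. Across genes, the departures of an experiment's SSC and BCSP arrays from their population means had correlations of 0.399, 0.177, 0.572 and 0.183. Each exceeded 0.1, so the numbers pair the arrays. The reported fits are unpaired, and blocking on experiment was an alternative, given where it changes a call. The others were quantile normalization, centring, the mean or lowest of a gene's probe sets, every probe set, eBayes without trend, a filter on low scores, array weights, the methods' t-test and leaving out each array. Added after seeing the data were the omission of both arrays of an experiment, an inverse normal scale and the block with every probe set.

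The collagen genes and lists were chosen with earlier results of these data known. Every collagen gene may be named with its level. Differences with error and p are given for collagen genes whose SSC and BCSP scores do not overlap or whose unadjusted limma p is under 0.05, and for the experiments past an adjusted p of 0.05. Other values, among them those of Col5a3, Col18a1 and the cartilage collagens, were chosen after they were seen.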

Additional observations from a re-analysis of the deposited data

Results flagged for a closer look

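Of 84 sets of 4 arrays (42 collagen genes in 2 populations), 9 had an array far from the others, where chance alone gives about 1 in 20. On the SSC array of experiment 1, Col22a1 scored 41.7 points against -5.55 to -1.42 points on the other SSC arrays, Col4a3 -43.5 against -80.6 to -75.7 points, and Col5a1 97.2 against 93.3 to 93.9 points. On the BCSP array of experiment 1, Col13a1 scored 12.1 points against -17.5 to -15.9 points on the other BCSP arrays, and Col8a1 36.5 against 53.4 to 55.95 points. On the BCSP array of experiment 3, Col10a1 scored 57.1 points against 82.2 to 85.8 points, and Col6a1 94.5 against 98.7 to 99.5 points. On the BCSP array of experiment 4, Col4a5 scored 47.5 points against 5.80 to 12.4 points. Col27a1 scored 99.97 points on the SSC array of experiment 3 and 100 points on the other SSC arrays, at the upper limit of the scale.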

How the results depend on the processing

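The comparison of SSCs with BCSPs gave 0 genes and 0 collagen genes past the threshold under each of 23 alternatives, including the replicate block (0 genes, with 949 at an unadjusted p under 0.05, and a Col4a1 difference of -53.2 points). Col4a1, Col4a2 and Col6a4 kept their direction under all 20 alternatives run for each. For most of these alternatives that outcome was fixed in advance for Col4a1 and Col4a2. Their populations did not overlap, so leaving out arrays could not change the direction. In this balanced design the block, the t-test and eBayes without trend leave the difference itself unchanged. The count of genes that differed between experiments was less stable. From 250 it became 906 of genes above 0 on at least 2 arrays, 740 on the inverse normal scale, 597 after quantile normalization, 503 over every probe set, 422 after centring on array medians, 131 with the mean of probe sets and 0 with eBayes without trend, of which 247, 221, 244, 202, 82 and 0 genes were shared with the 250 for the filter, the inverse normal scale, quantile normalization, centring, the mean and eBayes without trend. It was 0 to 6 without any single array and 0 without both arrays of any experiment. The filter tested fewer genes and the omissions used fewer arrays, and for the other changes the cause was not tested. The collagen count of 1 became 3 with the filter and 3 over every probe set, and 0 with centring, the mean of probe sets, eBayes without trend, any single array or both arrays of any experiment left out. The 22 active collagen genes became 35 of 82 with every probe set counted, 19 with the mean of probe sets, and 22 to 23 without any single array. Scores near 100 points limit what can be compared for the main collagens.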
